A study of Mus musculus with 3 samples.

Results

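The histone genes described here were every symbol in the deposited tables that starts with Hist1h, Hist2h, Hist3h or Hist4h, plus H1f0, a replacement linker histone gene. The rule gave 68 of the 32285 genes: 7 of the H1 family, 18 of H2A, 18 of H2B, 12 of H3 and 13 of H4. Bone marrow of C57BL/6J mice, taken from femur and tibia and passed over a Ficoll gradient, was profiled as single cells in 3 groups with 1 library each. The groups are Sham, MI (myocardial infarction, made by tying the LAD coronary artery) and MI-E, which the labels give as MI with EMPA and do not spell out further. The labels' protocol text describes the ligation for all samples alike, and the sources used here do not give the number of animals behind a library, their age or the time of sampling. With 1 library a group no test of a difference was possible, and the values describe these 3 libraries only.

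Histones are the proteins around which DNA is wound: H2A, H2B, H3 and H4 form the nucleosome core, and H1 linker histones bind the DNA between cores. Cells make most of their histone mRNA while they copy DNA in S phase, from clustered genes whose mRNAs end in a short stem-loop bound by SLBP instead of a poly(A) tail. Replacement histones such as H1f0 are made outside S phase from polyadenylated mRNAs, and marrow holds both rapidly dividing precursors and cells that have left the cycle.

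The assay primes cDNA on poly(A), so what follows the stem-loop, and any run of A before it, bears on how a member's RNA can enter these counts. The stem-loops of 6 members whose values recur below are shown 5′ to 3′ with the 12 bases before them, from GENCODE M21 transcripts (GRCm38/mm10). Capitals mark the 16-base stem-loop, which lay 24 to 41 bases after the stop codon, in the 3′ UTR, in these 6.
Hist1h2ap: aaaaaaaaaaaaGGCTCTTTTCAGAGCC
Hist1h2ae: aaaaaaaacaaaGGCTCTTTTCAGAGCC
Hist1h3c: tatttaaaaaaaGGCTCTTTTAAGAGCC
Hist1h4d: ccaaaaaccaaaGGCCCTTTTCAGGGCC
Hist1h1c: aacaatccaaaaGGCTCTTTTCAGAGCC
Hist3h2a: acagacaccaaaGGCTCTTTTCAGAGCC
The stretches lie at chr13:21833029-21833056 (minus strand, Hist1h2ap), chr13:23570668-23570695 (minus, Hist1h2ae), chr13:23745047-23745074 (minus, Hist1h3c), chr13:23581938-23581965 (plus, Hist1h4d), chr13:23739500-23739527 (plus, Hist1h1c) and chr11:58955160-58955187 (plus, Hist3h2a).

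A stem-loop of this kind was found in the annotated transcripts of 46 of the 68 members. Some of the other transcripts are annotated short, such as 381 bases in Hist1h2bl and Hist1h2bn and 312 in Hist1h4k. Bases past an annotated end were not searched, so a stem-loop not found is not shown to be absent from the gene. The form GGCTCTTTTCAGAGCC occurred in 26, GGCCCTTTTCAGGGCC in 7 and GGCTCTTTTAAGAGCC in 6, and the remaining 5 forms in 1 or 2 members each. The annotated transcript ended 3 bases past the stem-loop in Hist1h2ap, 74 in Hist1h3c and 151 in Hist1h2ae, and ran on for 770 bases in Hist1h4d, 840 in Hist1h1c and 1643 in Hist3h2a. In the 20 bases before the stem-loop, 4 members had a run of at least 7 A (Hist1h2ap, Hist1h2ae, Hist1h3c and Hist1h2ao). Their UMI totals (unique molecular identifiers, counted molecules) over the kept cells of the 3 libraries had a median of 38723 and ranged from 282 to 92248. The median was 9433 UMIs (3 to 30927) in the 14 members with a run of 4 to 6 and 3436 (297 to 53926) in the 28 with a shorter run, so the ranges overlapped. Hist1h1b, with 76471 UMIs, had no stem-loop found and is in none of these groups. These totals describe what the assay counted, are not levels per transcript length, and no test was made of them. The members lie on chromosome 13 (54), chromosome 3 (10), chromosome 11 (2), chromosome 6 (1) and chromosome 15 (1, H1f0).

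The deposited tables held 99657072 to 127330601 UMIs in 22857 to 25721 barcodes a library. Filtering of cells and of likely doublets left 21747, 20784 and 20038 cells in the order Sham, MI, MI-E. The libraries shared 156 to 176 barcode sequences pairwise, as barcodes only. A cell was called dividing at 2 or more UMIs of Mki67 plus Top2a, genes of proliferating cells: 4183 Sham cells (19.2%), 4170 MI cells (20.1%) and 4037 MI-E cells (20.1%). The libraries differed in depth and in cell mix. The median UMI count of non-dividing cells was 1670, 2510 and 1933, and that of dividing cells 6761, 10433 and 9768, for Sham, MI and MI-E. Cells of B lineage-like clusters were 48.6%, 18.8% and 26.4% of kept cells, and 30.002%, 1.37% and 3.07% of dividing cells. Values stand in this library order unless a sentence names the groups.

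Of the 68 members, 61 had at least 300 UMIs over the 3 libraries and 5 had fewer but at least 1 (Hist2h3c2 297, Hist1h2ao 282, Hist1h1t 29, Hist2h2aa2 3 and Hist1h2bq 1). Hist1h2ba and Hist1h2aa were at 0. All members together held 661024 UMIs, of which the 10 with most held 418703. Levels below are CPM: UMIs per 1000000 UMIs of the cells summed, so a level carries both the RNA per cell and the number of cells that hold it. A ratio was tested for size where the smaller sum would hold at least 10 UMIs at 1 common rate, and is called past 2-fold. In dividing over non-dividing cells 63 members met this minimum, the 61 just named by number, Hist2h3c2 and Hist1h2ao. Intervals are 95% and cover counting error only.

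Dividing cells carried most of the histone UMIs in every library. The 67 members other than H1f0 summed to 5237, 3651 and 3948 CPM in dividing cells and to 859, 399 and 497 CPM in non-dividing cells. Dividing cells thus held 84.7%, 90.6% and 90.6% of these histone UMIs, against 47.5%, 51.2% and 54.7% of all UMIs. Counted per cell, the sum was 46.0, 45.0 and 46.8 UMIs in a dividing cell and 1.99, 1.18 and 1.23 in a non-dividing cell. In Sham, 57 of 63 tested members were at least 2-fold higher in dividing cells, where 11.4% of all tested genes were. In MI the count was 60 of 63 (14.3% of all tested genes) and in MI-E 57 of 63 (14.1%). No member was 2-fold lower, where 19.5%, 20.6% and 21.8% of all tested genes were. The median log2 ratio of dividing over non-dividing cells was 2.85, 3.37 and 3.24 for the members and -0.18, -0.10 and -0.14 for all genes. Counting the same members across libraries, 56 were past 2-fold in all 3 (9.27% of all genes tested in all 3), and 3 were under 2-fold in all 3: Hist1h1c, Hist3h2a and Hist3h2ba. The plot of dividing against non-dividing levels shows these 3 below the line of 2-fold in each library. The ratio compares cells by their Mki67 and Top2a UMIs, and whether a member depends on replication was not tested. H1f0 was 36.4, 67.6 and 150 CPM in dividing cells and 37.2, 28.1 and 75.7 CPM in non-dividing cells, near even in Sham (log2 ratio -0.03) and higher in dividing cells in MI (1.26) and MI-E (0.99).

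**Figure D1:**
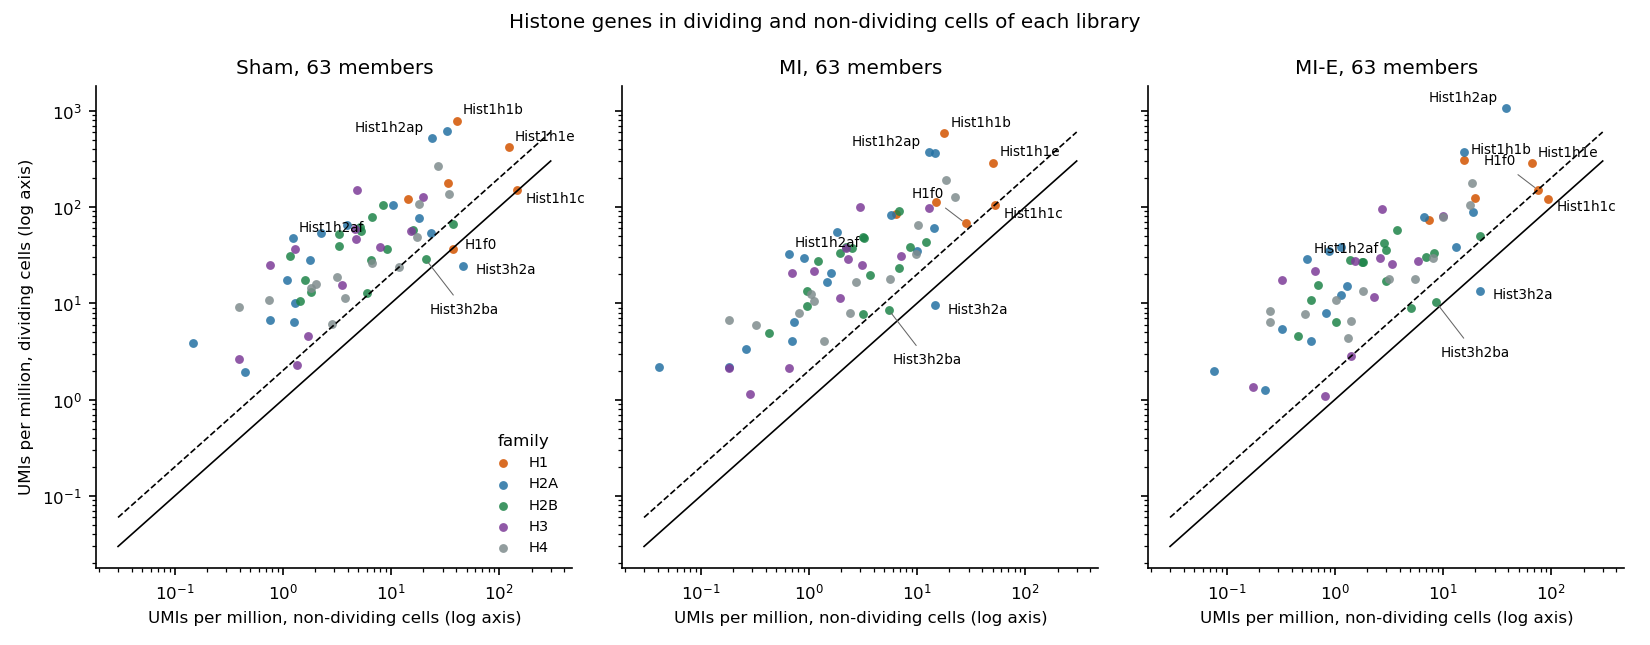
Level of each of 63 tested members in non-dividing cells (horizontal, CPM, log axis) and dividing cells (vertical, CPM, log axis), 1 panel a library, coloured by family; the solid line marks equal levels and the dashed line a 2-fold higher level in dividing cells. In the order Sham, MI, MI-E 57, 60 and 57 members lie above the dashed line, and Hist3h2a lies below the solid line in each panel.

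Among the linker histones, Hist1h1b (H1.5; 13:21779883-21780625, minus strand) had 785, 580 and 306 CPM in dividing cells and 40.4, 17.8 and 15.8 CPM in non-dividing cells. Its log2 ratio of dividing over non-dividing cells was thus 4.28, 5.03 and 4.28. Hist1h1a was 122, 84.3 and 73.8 CPM against 14.4, 6.40 and 7.45 CPM, Hist1h1d 177, 114 and 124 CPM against 33.6, 15.1 and 19.9 CPM, and Hist1h1e 421, 289 and 283 CPM against 122, 51.0 and 66.0 CPM. These 4 were past 2-fold in each library, with Hist1h1e the least so at log2 ratios of 1.78, 2.50 and 2.10 for dividing over non-dividing cells. Hist1h1c (H1.2; 13:23738808-23740367, plus strand) went otherwise, with 149, 104 and 122 CPM in dividing and 148, 52.6 and 93.3 CPM in non-dividing cells. Its log2 ratios were 0.01, 0.98 and 0.38 for Sham, MI and MI-E over all cells. In Sham non-dividing and dividing cells thus had the same pooled level within counting error. Classes differed. In plasmacytoid dendritic-like cells Hist1h1c was at 134, 58.3 and 110 CPM in dividing and 49.5, 23.8 and 35.8 CPM in non-dividing cells. In stem and multipotent progenitor-like cells it was at 108, 52.2 and 64.6 CPM against 97.6, 55.9 and 67.5 CPM. Basophil and mast-like cells of Sham held 351 against 414 CPM. The part of cell mix in the pooled ratio was not tested. The seventh H1 gene, Hist1h1t, a linker histone of the male germ line, had 29 UMIs in all.

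The 150 bases before the annotated start of 3 linker histone genes with these different patterns are shown 5′ to 3′ on the gene's strand, from RefSeq (GRCm38.p6). Capitals mark TATAAA (the TATA box), CCAAT (the CCAAT box, also in its reverse form ATTGG) and AAACACA (the H1 box).
Hist1h1b: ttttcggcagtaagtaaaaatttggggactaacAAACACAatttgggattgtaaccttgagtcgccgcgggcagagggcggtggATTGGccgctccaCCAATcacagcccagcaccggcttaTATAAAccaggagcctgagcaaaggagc
Hist1h1c: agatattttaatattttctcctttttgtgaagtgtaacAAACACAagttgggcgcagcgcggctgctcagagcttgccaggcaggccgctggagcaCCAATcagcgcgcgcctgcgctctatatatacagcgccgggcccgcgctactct
H1f0: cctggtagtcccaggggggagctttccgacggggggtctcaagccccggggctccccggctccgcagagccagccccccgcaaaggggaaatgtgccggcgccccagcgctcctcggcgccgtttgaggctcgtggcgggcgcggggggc
They lie at chr13:21780626-21780775 (minus strand, Hist1h1b), chr13:23738657-23738806 (plus, Hist1h1c) and chr15:79028062-79028211 (plus, H1f0). Counted back from the start, Hist1h1b holds TATAAA at -28, CCAAT at -53 and AAACACA at -117, Hist1h1c holds CCAAT at -54 and AAACACA at -112, and H1f0 holds none of the 3 in this window. Only these exact letters were searched. Other forms, such as the tatatata in the Hist1h1c window, were not counted, so Hist1h1c is not shown to lack a TATA box. The GENCODE M21 gene start of H1f0 is at chr15:79028450, past the end of its window. The bases just before that start were not read, so for H1f0 the absence holds for the RefSeq window only. A promoter entry was matched for 62 members, each with 250 bases before and 50 after the start, read on both strands. TATAAA was in 34 of the 62 (54.8%) and in 13.6% of 32851 promoters, and CCAAT was in 52 (83.9%) against 37.4%. CCAAT was in each matched H1 (5), H2A (18), H2B (16) and H3 (10) promoter and in 3 of 12 H4 promoters. AAACACA was in 4 of 5 H1 promoters, in 8 of all 62 (12.9%) and in 7.18% of all promoters. A match is a description of letters, and no factor was measured.

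In the H2A family, 15 of 16 tested members were past 2-fold in each library, with median log2 ratios of dividing over non-dividing cells of 3.66, 3.67 and 3.55. Hist1h2ap (13:21833026-21833507, minus strand) had 517, 372 and 1067 CPM in dividing cells and 24.1, 12.9 and 38.0 CPM in non-dividing cells. It is the H2A member that stood 2-fold above Sham in MI-E dividing cells, as described below. Hist1h2ae had 613, 367 and 371 CPM against 33.0, 14.7 and 15.6 CPM. Hist1h2af was at 47.3, 32.9 and 28.6 CPM in dividing and only 1.23, 0.654 and 0.555 CPM in non-dividing cells, a log2 ratio of 5.26, 5.65 and 5.69. The exception was Hist3h2a (11:58954685-58956830, plus strand). It was at 24.7, 9.57 and 13.5 CPM in dividing cells and 46.3, 14.7 and 21.9 CPM in non-dividing cells. That is higher in non-dividing cells in each library, by less than 2-fold (log2 ratios -0.91, -0.62 and -0.69). Hist2h2aa1 (77.5, 61.2 and 89.7 CPM in dividing cells) and Hist1h2ac (54.0, 35.2 and 38.7 CPM) were past 2-fold with smaller log2 ratios of 2.09, 2.10 and 2.23 and of 1.21, 1.82 and 1.54. The others past 2-fold were Hist2h2ac, Hist1h2an, Hist1h2ab, Hist1h2ak, Hist1h2ag, Hist1h2ad, Hist2h2ab, Hist1h2ai, Hist1h2ah and Hist1h2ao.

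In the H2B family, 14, 15 and 14 of 16 tested members were past 2-fold, with median log2 ratios of 3.13, 3.63 and 3.46. Hist1h2bj had 104, 90.5 and 57.3 CPM in dividing and 8.43, 6.78 and 3.74 CPM in non-dividing cells. Hist3h2ba, the neighbour of Hist3h2a on chromosome 11, had 28.6, 8.57 and 10.2 CPM in dividing and 20.99, 5.48 and 8.66 CPM in non-dividing cells (log2 ratios 0.45, 0.65 and 0.24). Hist1h2bc had 66.7, 43.2 and 49.6 CPM against 37.4, 12.2 and 21.8 CPM, and was under 2-fold in Sham alone (log2 ratio 0.83, against 1.82 and 1.19). Hist2h2be was under 2-fold in MI-E alone (1.10, 1.31 and 0.82). The other 13 were Hist1h2bb, Hist1h2be, Hist2h2bb, Hist1h2bn, Hist1h2bm, Hist1h2br, Hist1h2bh, Hist1h2bk, Hist1h2bg, Hist1h2bp, Hist1h2bf, Hist1h2bl and, as above, Hist1h2bj, with log2 ratios between 1.79 (Hist1h2br in MI) and 4.76 (Hist1h2bk in Sham).

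For the core histones H3 and H4 the pattern was nearly uniform. All 13 H4 members were past 2-fold in each library, with medians of 2.55, 2.70 and 2.88, and 11, 12 and 11 of 12 H3 members, with medians of 2.72, 3.27 and 2.96. Hist1h4d had 265, 192 and 178 CPM in dividing and 27.1, 18.5 and 18.7 CPM in non-dividing cells, and Hist1h4i 136, 127 and 104 CPM against 34.1, 22.6 and 17.8 CPM. The smallest H4 log2 ratio was that of Hist4h4 in Sham, at 1.01. The remaining H4 members were Hist1h4h, Hist1h4c, Hist2h4, Hist1h4a, Hist1h4j, Hist1h4n, Hist1h4b, Hist1h4k, Hist1h4f and Hist1h4m. Hist1h3c had 148, 99.1 and 96.3 CPM against 4.85, 3.004 and 2.75 CPM, and Hist1h3e 127, 98.1 and 80.0 CPM against 19.8, 12.9 and 10.1 CPM. Hist2h3c2 was the H3 member under 2-fold in Sham and MI-E (log2 ratios 0.77, 2.00 and 0.43), on 297 UMIs in all. The other H3 members were Hist1h3a, Hist1h3i, Hist1h3f, Hist1h3d, Hist1h3b, Hist1h3g, Hist2h3b, Hist2h3c1 and Hist1h3h.

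Several members cannot be told apart by sequence, and the sources used here do not say how reads that match several genes were treated. Of the 90-base stretches in the last 400 bases of a member's transcript, 100% in Hist1h2ap and 91.0% in Hist1h2ao occur in another H2A gene, so their values are uncertain between near-identical copies. The share was 100% for Hist1h1e (with Hist1h2be), 37.0% for Hist1h2ae and 35.0% for Hist1h3c, and 0% for Hist1h1b, Hist1h1c, Hist1h4d, Hist3h2a and H1f0. The annotated end of the transcript also went with the pattern. Where an annotated transcript runs at least 100 bases past the stem-loop (22 tested members), the median log2 ratio of dividing over non-dividing cells was 1.98, 2.50 and 2.50. Where every stem-loop transcript ends sooner (22), it was 3.49, 3.76 and 3.88, and where no stem-loop was found (19, H1f0 and Hist1h1b among them), 3.13, 3.65 and 3.54. That last set also holds members with a short annotated transcript, so it is not a set known to lack the stem-loop. These medians are a description over genes, with no test.

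Within cell classes the difference held where it could be measured. Classes are named from marker lists and called by the type with -like. In Sham, 58 of 63 tested members were past 2-fold higher in dividing B lineage-like cells (11.2% of all genes tested), 52 of 56 in neutrophil-like (20.4%) and 35 of 44 in stem and multipotent progenitor-like cells (5.94%). In erythroid-like cells 52 of 55 were, but so were 66.2% of all genes tested, and the member median of 3.15 stood beside a median of 1.42 for all genes. In MI the counts were 60 of 61 in monocyte-like (10.1%) and 59 of 60 in neutrophil-like cells (23.0%), and in MI-E 60 of 61 (11.1%) and 55 of 58 (23.3%). Neutrophil-like cells had a median log2 ratio of 4.25 in Sham and 4.94 in MI. Their non-dividing cells held 604.8, 217.6 and 346.4 CPM of all members, the lowest of the 8 classes compared in MI. In the other libraries T-like cells were lowest (490.3 CPM in Sham and 341.4 CPM in MI-E). In Sham, 113 dividing basophil and mast-like cells held 8017 CPM of the members other than H1f0. That class was not compared, as not every library held 50 such cells. Summed levels of all members in dividing cells are given for the 7 classes that did. In Sham they ran from 3437 CPM in myeloid progenitor-like to 7421 CPM in B lineage-like cells. In MI they ran from 2811 CPM in stem and multipotent progenitor-like to 4432 CPM in monocyte-like cells. In MI-E they ran from 3286 CPM in myeloid progenitor-like to 6012 CPM in B lineage-like cells, and dividing B lineage-like cells numbered 1255, 57 and 124.

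The members with sizeable levels in non-dividing cells differed by class. Hist1h1c was at 414, 218 and 313 CPM in basophil and mast-like cells, 212, 79.9 and 122 CPM in B lineage-like, 199, 54.1 and 116 CPM in neutrophil-like and 144, 54.0 and 121 CPM in macrophage-like cells. In monocyte-like cells it was at 74.9, 37.8 and 61.5 CPM, in T-like cells at 62.3, 41.1 and 28.8 CPM, in conventional dendritic-like cells at 63.9, 56.7 and 64.0 CPM and in plasmacytoid dendritic-like cells at 49.5, 23.8 and 35.8 CPM. The basophil and mast-like class was thus the highest for Hist1h1c in each library. Hist3h2a was at 79.4, 33.2 and 44.7 CPM in B lineage-like and 55.4, 76.3 and 50.9 CPM in plasmacytoid dendritic-like cells, and at 6.21, 4.44 and 4.01 CPM in neutrophil-like cells. Hist3h2ba followed a like order: 43.7, 18.9 and 21.7 CPM in B lineage-like, 37.3, 50.7 and 41.5 CPM in plasmacytoid dendritic-like and 1.21, 0.409 and 0.585 CPM in neutrophil-like cells. Hist1h1b and Hist1h2ap, 2 genes of dividing cells, stood in these non-dividing classes at 2.65% to 21.1% and 3.29% to 25.7% of their all-cell level. Non-dividing cells with at least 2 UMIs of Pclaf, Tyms and Rrm2, other genes of cycling cells, held 105.3, 61.07 and 40.71 CPM of Hist1h1b. The remaining non-dividing cells held 38.06, 15.95 and 15.04 CPM. The parts of free RNA and of cycling cells missed by the call of division in these levels were not tested. Hist1h1c stood in the same classes at 26.5% to 288% of its own all-cell level.

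**Figure D2:**
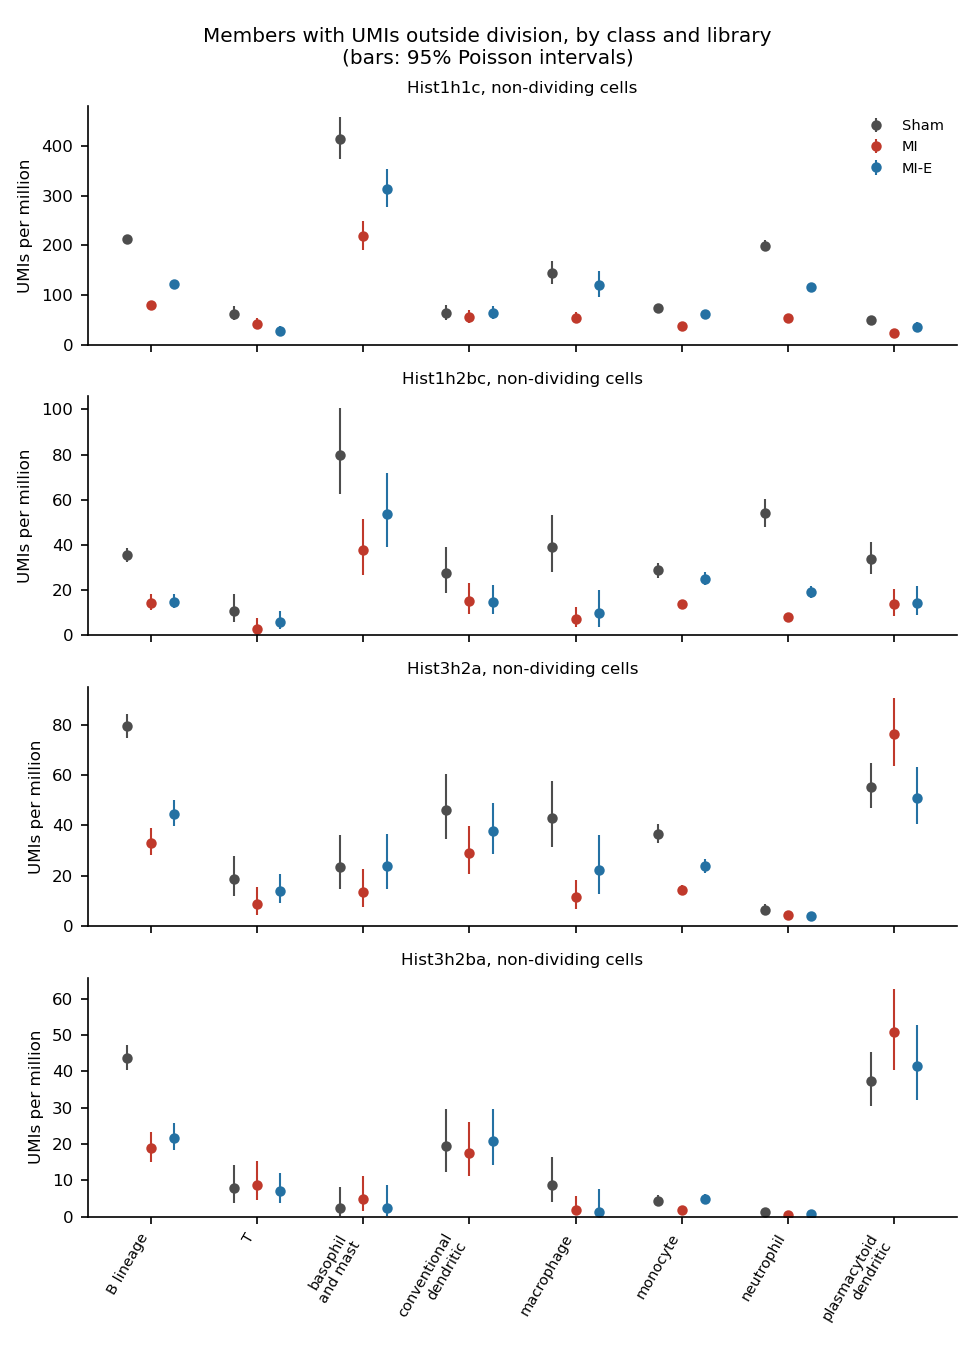
Level (CPM, linear axis) of Hist1h1c, Hist1h2bc, Hist3h2a and Hist3h2ba in the non-dividing cells of 8 classes, 1 colour a library, with 95% Poisson bars for counting error. Hist1h1c is highest in basophil and mast-like cells in each library (414, 218 and 313 CPM), and Hist3h2a and Hist3h2ba are lowest in neutrophil-like cells.

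Within the B lineage-like class the level of Hist1h1c depended on the cluster. In non-dividing cells of the cluster led by Rag1, the recombinase gene of developing B cells, Hist1h1c was at 376, 128 and 276 CPM and Hist3h2a at 147, 71.1 and 116 CPM. In the cluster led by Fcer2a, a gene of mature B cells, Hist1h1c was at 130, 75.9 and 92.6 CPM and Hist3h2a at 24.7, 17.2 and 18.6 CPM. The Rag1-led cluster held 3768, 824 and 959 of these cells and the Fcer2a-led cluster 3435, 2274 and 3382. The mix of the class thus differed between libraries, and its share in the class values was not tested. The levels by cluster were looked at after the class values were seen.

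Dividing cells were split by their phase lists, with no histone gene, Mki67 or Top2a in either list: S-leaning where at least 0.5 of the S plus G2 and M list UMIs were S. S-leaning cells numbered 1062, 849 and 802 and G2M-leaning cells 3119, 3320 and 3233, of which 1201, 1249 and 1236 lay near the cut (0.4 to 0.6). No member was 2-fold higher in S-leaning cells, where 2.33%, 4.42% and 4.13% of all tested genes were. In Sham 3 of 63 were 2-fold lower (3.23% of all), Hist2h2ab, Hist3h2ba and Hist1h2af, and in MI and MI-E 1 of 63 was (3.42% and 3.01%), Hist2h2ab (log2 ratios -1.57, -1.58 and -1.03). The member medians were -0.40, -0.25 and -0.34, and the medians over all genes 0.05, 0.16 and 0.12. These counts depend on the cut: with cells at 0.4 to 0.6 left out, 23 (of 60 tested), 19 and 15 members were 2-fold lower in S-leaning cells. The share of all genes was not taken under that cut, so these 3 counts have no background beside them. The cut compares raw UMIs of the lists and marks a leaning, not a measured phase. Cells under 2 UMIs of Mki67 plus Top2a did not enter, so the split may not cover all cells in S phase. Among them 266, 270 and 248 held at least 2 UMIs of Pclaf, Tyms and Rrm2, other genes of cycling cells. There the members other than H1f0 summed to 1036, 677 and 712 CPM.

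Bins of the S share, added after the first values were seen, show a shape that the split hides. The values are for 4 bins up to a share of 0.8. A bin above 0.8 held only 11, 4 and 8 cells, with 1362, 781 and 1062 CPM of the members other than H1f0, and is not described further. The 67 members other than H1f0 summed in Sham to 5451 CPM below an S share of 0.2, 5740 at 0.2 to 0.4, 5228 at 0.4 to 0.6 and 2833 at 0.6 to 0.8. The same bins read 3317, 3897, 3963 and 1997 CPM in MI and 3902, 4379, 3753 and 2251 CPM in MI-E. Of these 4 bins the sum was highest in a middle one and lowest at 0.6 to 0.8 in each library, in 424, 253 and 235 cells. Members differed: Hist1h1a was at 65.9, 133, 163 and 101 CPM along the bins in Sham, 29.6, 83.4, 133 and 83.0 CPM in MI and 40.2, 72.9, 97.8 and 82.7 CPM in MI-E. Hist1h4d was at 329, 301, 219 and 116 CPM in Sham, lower with each bin. In MI it was at 202, 204, 189 and 90.6 CPM and in MI-E at 195, 205, 150 and 91.2 CPM, with its highest value in the second bin. Slbp, whose protein binds the stem-loop, was at 84.97, 192, 284 and 279 CPM along the bins in Sham, 71.9, 154, 227 and 229 CPM in MI and 79.3, 162, 234 and 252 CPM in MI-E, so it was high in the bin of the 4 where the histone sum was lowest. H2afx, a variant with both stem-loop and polyadenylated mRNA, was at 662, 468, 237 and 140 CPM in Sham, 366, 223, 148 and 83.0 CPM in MI and 426, 289, 159 and 114 CPM in MI-E. The bins rest on a per-cell share of UMIs and mark ranges, not measured phases.

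**Figure D3:**
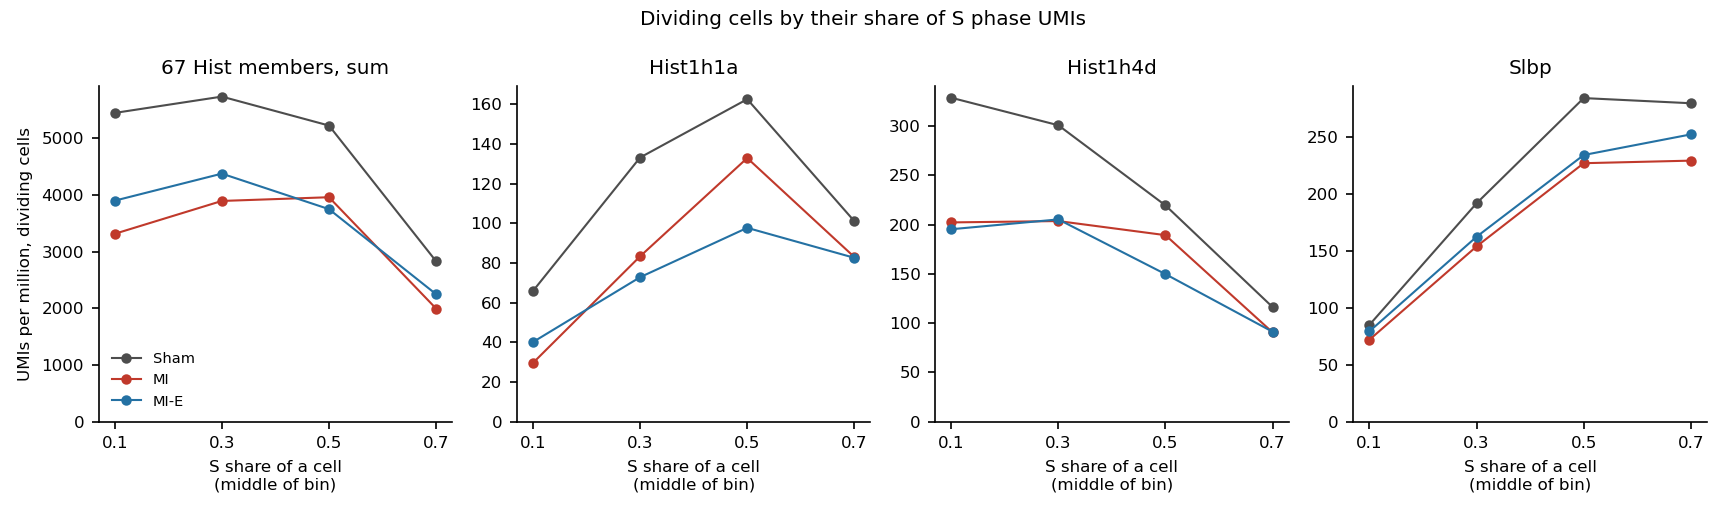
Levels (CPM) along 4 bins of the S share of dividing cells (horizontal, bin middle) for the sum of the 67 Hist members, Hist1h1a, Hist1h4d and Slbp, 1 line a library. The bin above 0.8 (11, 4 and 8 cells) is not drawn. Of the 4 bins drawn, the sum is lowest in the last in each library (2833, 1997 and 2251 CPM), where Slbp is at or near its highest.

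Between the groups, histone levels in dividing cells were lower in MI than in Sham per UMI counted. They were nearly equal in raw UMIs per cell, which are not corrected for depth. All members together were at 5274, 3718 and 4098 CPM in dividing cells, and the sum without H1f0 was 46.0, 45.0 and 46.8 UMIs a cell. For MI over Sham, 60 of 63 tested members had a ratio below 1, 6 were 2-fold lower (9.22% of all tested genes) and none was 2-fold higher (3.89%). The member median was -0.58 in log2 and that of all genes -0.08. Those 2-fold lower included Hist3h2ba (log2 ratio -1.74) and Hist3h2a (-1.37). The median UMI count of a dividing cell was 6761 in Sham and 10433 in MI. Other settings moved the count of 6 both ways. Without B lineage-like cells 1 of the 63 was 2-fold lower, and a looser cell filter or UMIs per cell also gave fewer members past 2-fold. With cells thinned to a common depth, or weighted equally, more members were past 2-fold. The share of all genes was not taken under these settings, so they have no background beside them. For MI-E over Sham, 9 of 63 were 2-fold lower (6.93%) and 2 higher (3.86%), Hist1h2ap and H1f0, with a median of -0.64 against 0.05. For MI-E over MI, the same 2 were higher (2 of 63; 2.37%) and none was 2-fold lower (1.12%). MI and MI-E share the Sham library in these comparisons, so the values only stand side by side.

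In non-dividing cells the members were lower in both MI and MI-E than in Sham. All members together were at 896 CPM in Sham, 427 CPM in MI and 573 CPM in MI-E. For MI over Sham, 30 of 62 tested members were 2-fold lower (10.6% of all tested genes) and none higher (5.56%), with a member median of -0.94 and -0.20 for all genes. By family these were 5 of 6 H1, 7 of 15 H2A, 5 of 16 H2B, 7 of 12 H3 and 6 of 13 H4 members. For MI-E over Sham, 28 of 62 were 2-fold lower (5.47%) and 1 higher (5.39%), H1f0, with medians of -0.96 and -0.02. For MI-E over MI, 4 of 59 were 2-fold higher (3.66%), Hist1h2ap, H1f0, Hist2h3c1 and Hist2h3c2, and 1 lower (0.968%), Hist1h3g. Depth and cell mix moved with these counts. With each cell thinned to 1000 UMIs before the call of division, 7 of 61 tested members were past 2-fold in MI over Sham and 17 of 60 in MI-E over Sham. Without B lineage-like cells the counts were 19 of 58 and 15 of 59. Median-of-ratios scaling shifted the log2 ratios of all genes in MI over Sham by 0.20 here, and left 16 of 62 members past 2-fold. The share of all genes past 2-fold was not taken under these settings, so these counts have no background beside them. Non-dividing cells with under 2 UMIs of Pclaf, Tyms and Rrm2, other genes of cycling cells, held 853, 387 and 490 CPM of the members other than H1f0, a split added after the first values were seen. Over dividing and non-dividing cells together, 5 of 63 members were 2-fold lower in MI than in Sham (10.6% of all tested genes) and none higher (5.03%).

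**Figure D4:**
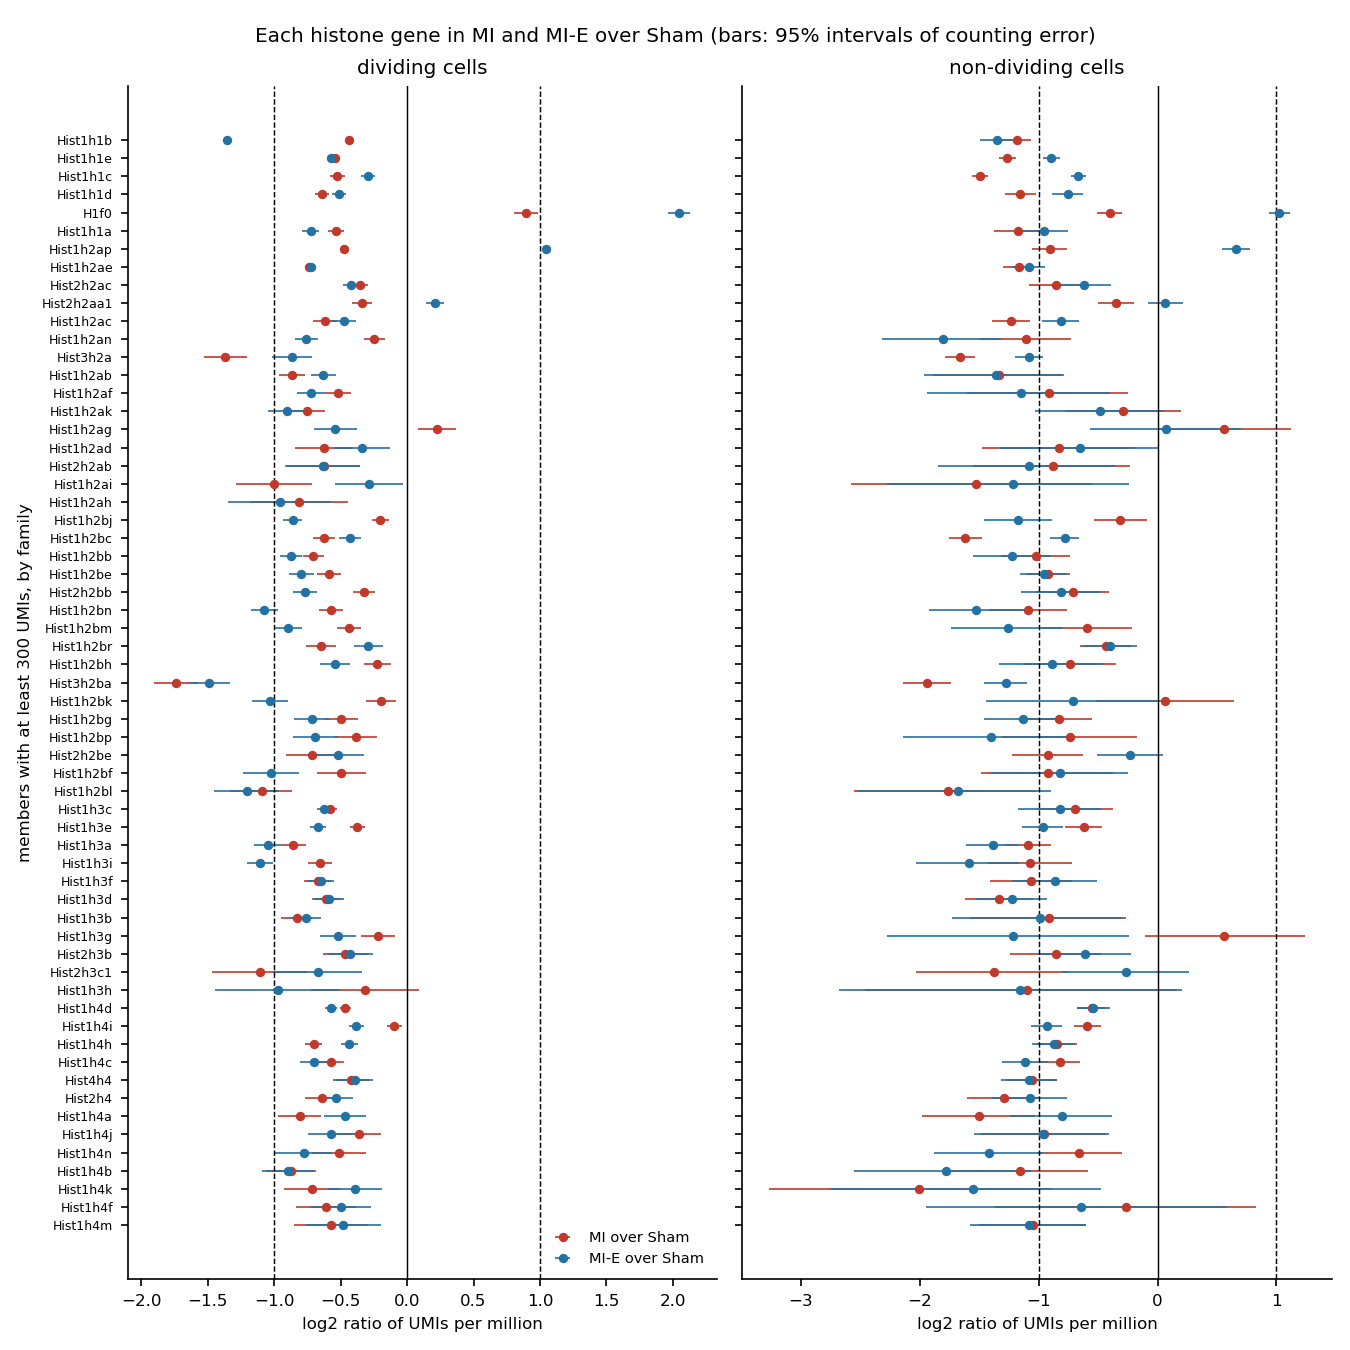
Log2 ratio to Sham of 61 members with at least 300 UMIs, grouped by family, in MI (red) and MI-E (blue), for dividing and for non-dividing cells, with 95% bars for counting error and dashed lines at -1 and 1. Most points lie below 0 in both panels, and Hist1h2ap and H1f0 in MI-E stand above 1 in dividing cells (1.04 and 2.05).

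Members with sizeable levels in non-dividing cells showed the difference by class. Hist1h1c, at 148, 52.6 and 93.3 CPM over all non-dividing cells, was 2.81-fold lower in MI than in Sham (2.69 to 2.95) and 1.59-fold lower in MI-E (1.52 to 1.65). It was lower in MI in 8 of 8 classes, and in a mean that weights classes equally the log2 ratio was -1.11 for MI and -0.50 for MI-E. Hist1h2bc was 3.07-fold lower in MI (2.79 to 3.38). It was lower in 8 of 8 classes in both MI and MI-E, with neutrophil-like cells at 54.0, 8.29 and 19.1 CPM and B lineage-like cells at 35.6, 14.5 and 14.9 CPM. Hist3h2a was 3.16-fold lower in MI (2.90 to 3.45) over all non-dividing cells, and lower in 7 of 8 classes, with plasmacytoid dendritic-like cells higher at 55.4 and 76.3 CPM. Hist3h2ba was 3.83-fold lower (3.34 to 4.41) over all non-dividing cells, but lower in only 5 of 8 classes. Its equally weighted log2 ratio was -0.25, against -1.94 over all non-dividing cells, and the class with its highest Sham level, B lineage-like, held 48.6% of kept cells in Sham and 18.8% in MI. The part of that share in the value was not tested.

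By class, in non-dividing neutrophil-like cells 18 of 24 tested members were 2-fold lower in MI than in Sham (4.67% of all genes tested), with a member median of -1.24. In B lineage-like cells 12 of 46 were (2.51%), with a median of -0.73 against 0.06 for all genes, and in monocyte-like cells 11 of 50 (6.21%). In T-like cells 2 of 17 were (1.98%), in basophil and mast-like 7 of 29 (2.83%) and in plasmacytoid dendritic-like cells 3 of 23 (2.4%). For MI-E over Sham the counts of 2-fold lower members were 12 of 22 in neutrophil-like (3.64%), 17 of 52 in B lineage-like (2.67%) and 9 of 46 in monocyte-like cells (4.41%). Most neutrophil-like and monocyte-like cells sat in different clusters in Sham than in the other libraries. The Slc7a11-led neutrophil-like cluster held 1459, 37 and 74 cells and the Cstdc4-led one 101, 2726 and 2311. The Ifi27l2a-led monocyte-like cluster held 2666, 24 and 54 cells and the Saa3-led one 19, 3656 and 2735. The library and the cluster cannot be told apart there. In the Ltf-containing neutrophil-like cluster led by AA467197, present in each library, Hist1h1c was at 81.1, 41.6 and 84.4 CPM in non-dividing cells, so MI was lowest there too and MI-E was not below Sham. In the same cells the members other than H1f0 summed to 398, 183 and 251 CPM, Hist1h1e was at 100.6, 33.3 and 42.6 CPM and Hist1h2bc at 21.1, 4.85 and 9.38 CPM, with MI-E between the other libraries. In dividing cells, 17 of 51 members were 2-fold lower in plasmacytoid dendritic-like cells of MI (3.78%), 2 of 62 in monocyte-like (4.57%) and none of 63 in myeloid progenitor-like cells (2.63%). In dividing B lineage-like cells 23 of 30 were (12.5%), on 57 MI cells.

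Hist1h2ap, Hist1h1b and H1f0 showed patterns of their own between the groups. Hist1h2ap was lowest in MI and highest in MI-E in each of the 7 dividing and 8 non-dividing classes. Class ratios under 2-fold were not followed under other settings, so this order as a whole was not checked there. Of its class ratios past 2-fold, 2 reversed. With cells thinned to 1000 UMIs its log2 ratio of MI over Sham in non-dividing neutrophil-like cells was 0.0062. At a clustering resolution of 0.5 that of MI-E over Sham in dividing monocyte-like cells was -0.98. At that resolution the Nrg1-led cells, 250, 1500 and 1663 in number, took the myeloid progenitor name. In dividing cells it was at 517, 372 and 1067 CPM, so MI-E was 2.06-fold above Sham (2.03 to 2.10) and 2.87-fold above MI (2.82 to 2.92). In non-dividing cells, at 24.1, 12.9 and 38.0 CPM, MI-E was 1.58-fold above Sham (1.45 to 1.71) and 2.95-fold above MI (2.69 to 3.25). By class, dividing neutrophil-like cells had 583, 510 and 1424 CPM, erythroid-like 490, 387 and 937 CPM, myeloid progenitor-like 353, 299.4 and 871 CPM and stem and multipotent progenitor-like 378, 224 and 814 CPM. Weighted equally over classes the log2 ratio of MI-E over Sham was 1.11 in dividing and 0.79 in non-dividing cells. With Hist1h2ap the H2A family took 31.0%, 29.6% and 44.1% of all member UMIs in dividing cells. The other H2A members showed no such pattern at this size: Hist1h2ae was 0.73 lower in log2 in MI-E than in Sham in dividing cells (log2 ratio -0.73), and Hist2h2aa1 stood at 0.21. The near-identical Hist1h2ao was at 1.96, 2.20 and 1.28 CPM in dividing cells. Counted per cell, the log2 ratio of MI over Sham in dividing cells was 0.01 for Hist1h2ap and 0.05 for Hist1h1b. In dividing cells the lower MI level of both was thus seen in CPM and not in raw UMIs per cell. Those counts are not corrected for depth, and the median dividing cell held 6761 UMIs in Sham and 10433 in MI. They cannot tell apart depth and RNA content of a cell. No per-cell ratio of these genes is given here for non-dividing cells.

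Hist1h1b was lowest in MI-E. In dividing cells it was at 785, 580 and 306 CPM, so MI-E was 2.57-fold below Sham (2.51 to 2.62), with a log2 ratio to MI of -0.92. In non-dividing cells, at 40.4, 17.8 and 15.8 CPM, MI-E was 2.56-fold below Sham (2.33 to 2.81), and the log2 ratio of MI-E over MI was -0.17. MI-E was below Sham in 7 of 7 dividing and 8 of 8 non-dividing classes, and below MI in 6 of 7 and 7 of 8. Dividing monocyte-like cells had 966, 765 and 388 CPM, erythroid-like 689, 603 and 306 CPM, neutrophil-like 631, 518 and 313 CPM and stem and multipotent progenitor-like 406, 353 and 211 CPM. In B lineage-like cells the values were 1136, 352 and 429 CPM, the class where MI-E was above MI. The other linker histones of dividing cells moved less: Hist1h1e had a log2 ratio of MI-E over MI of -0.03, Hist1h1d 0.13 and Hist1h1a -0.19.

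H1f0, the replacement linker histone, was highest in MI-E. In dividing cells it was at 36.4, 67.6 and 150 CPM, so MI-E was 4.13-fold above Sham (3.90 to 4.38) and 2.22-fold above MI (2.13 to 2.31), and MI 1.86-fold above Sham (1.75 to 1.98). In non-dividing cells it was at 37.2, 28.1 and 75.7 CPM, so MI-E was 2.04-fold above Sham (1.91 to 2.17) and 2.69-fold above MI (2.52 to 2.87), while MI was below Sham (log2 ratio -0.40). MI-E was above both other libraries in 7 of 7 dividing and 8 of 8 non-dividing classes. Non-dividing monocyte-like cells had 68.3, 45.9 and 124 CPM, basophil and mast-like 88.9, 88.8 and 176 CPM, conventional dendritic-like 67.4, 65.4 and 130 CPM, macrophage-like 32.6, 30.6 and 121 CPM and neutrophil-like 6.55, 10.2 and 35.4 CPM. Dividing erythroid-like cells had 14.4, 58.0 and 74.4 CPM, and in their cluster led by Hemgn, an erythroid nuclear protein gene, the values were 0.560, 60.04 and 94.5 CPM. The Sham value of that cluster, in 441 cells, is near the floor of counting, and no ratio is drawn from it. In the Vpreb1-led cluster of early B lineage-like cells, non-dividing cells had 188, 91.3 and 318 CPM. The 5 genes with the likest pattern to H1f0 over 45 class, division and library sums, of 8475 genes compared, were Hsd3b7 (Spearman 0.65), Mcmbp (0.62), P4hb (0.62), Sod1 (0.61) and Aldh16a1 (0.61), a description over sums that share libraries.

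**Figure D5:**
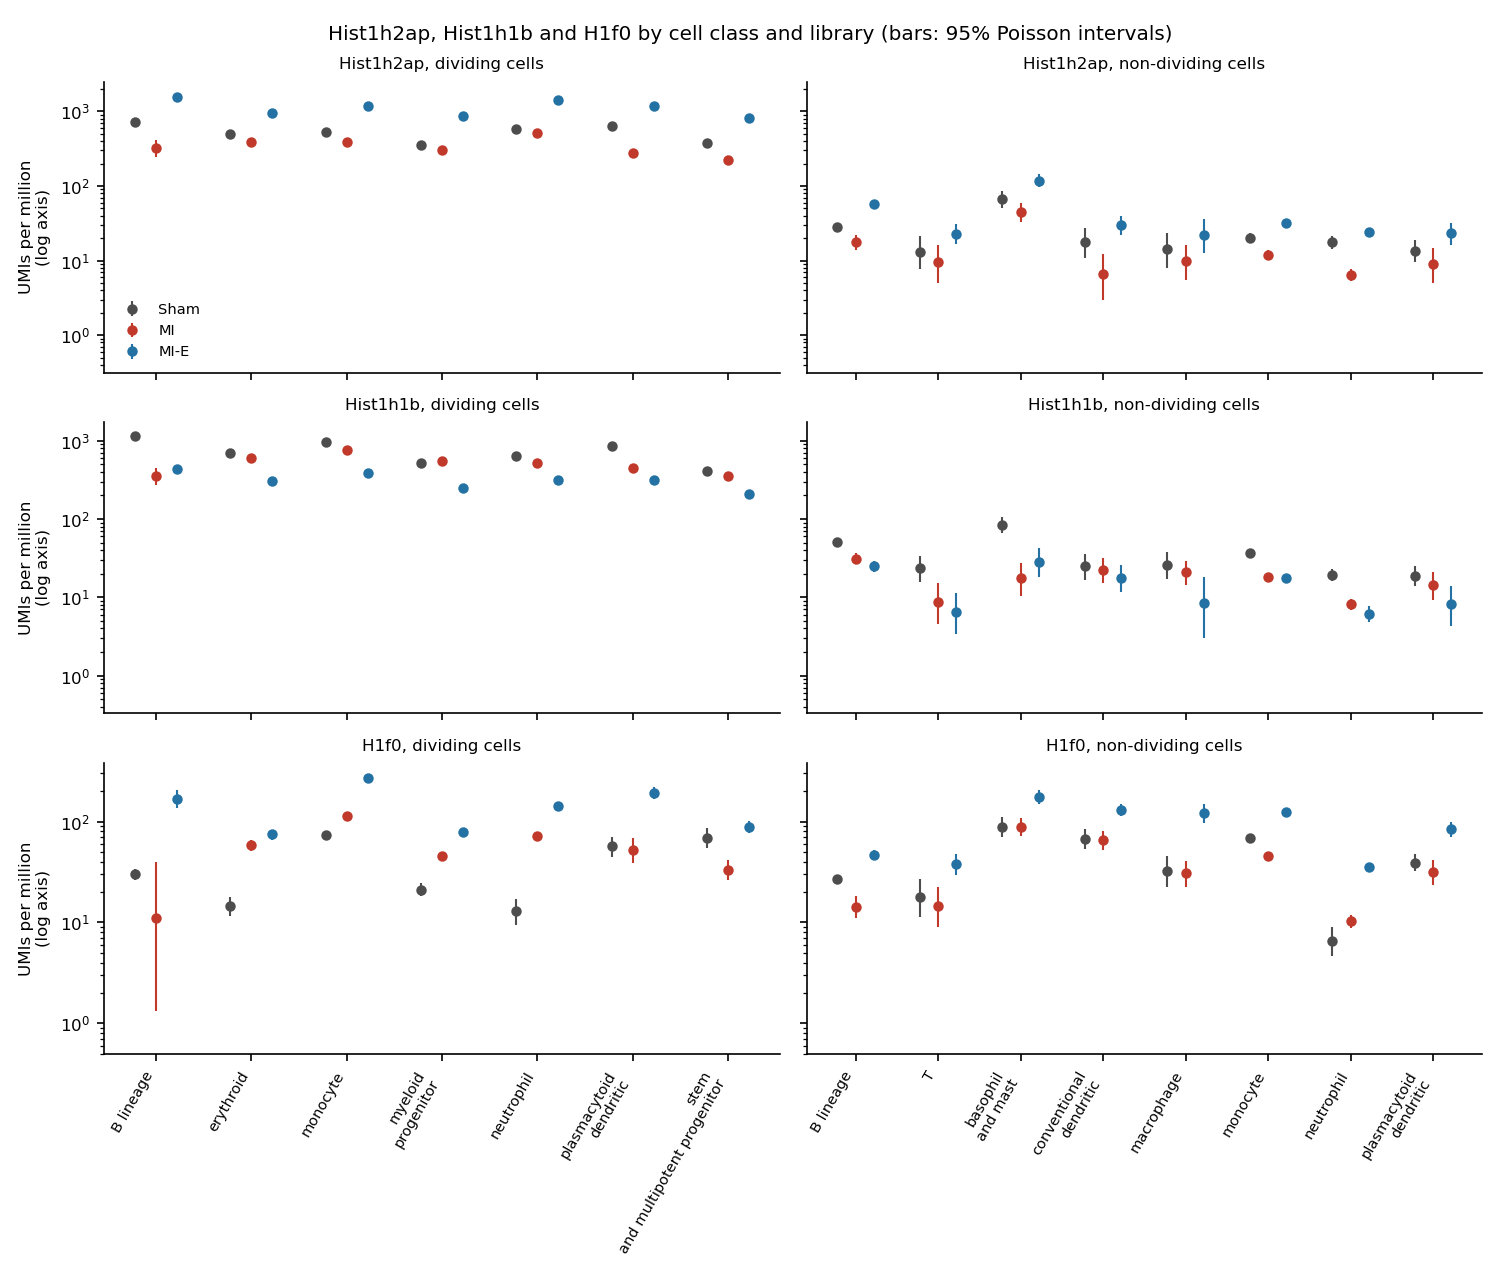
Level (CPM, log axis) of Hist1h2ap, Hist1h1b and H1f0 in 7 dividing and 8 non-dividing classes, 1 colour a library, with 95% Poisson bars for counting error. MI-E is the highest library for Hist1h2ap and H1f0 in each class, and is below Sham for Hist1h1b in each class.

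Other genes of the histone pathway moved less between dividing and non-dividing cells than the members' medians. Of all tested genes 11.4%, 14.3% and 14.1% were 2-fold higher in dividing cells, with medians of -0.18, -0.10 and -0.14, to set beside the counts here. Of 12 replacement and variant histone genes, 10 were tested and 6, 6 and 5 were 2-fold higher in dividing cells, with medians of 1.76, 1.24 and 1.14 in log2. H2afz, the H2A.Z variant, was at 2885, 2853 and 2609 CPM in dividing cells and 852, 1054 and 877 CPM in non-dividing cells, and H3f3a, an H3.3 gene, at 2217, 1436 and 1329 CPM against 2407, 1765 and 1683 CPM. Of 26 genes for processing and transcription of histone mRNA, 7, 7 and 8 were 2-fold higher (medians 0.66, 0.55 and 0.70). Slbp was at 201, 159 and 171 CPM in dividing and 64.1, 56.1 and 62.2 CPM in non-dividing cells, Srrt, a cap-complex partner, at 109, 115 and 125 CPM against 61.9, 58.3 and 60.7 CPM, and Npat, the coactivator of histone genes, at 23.6, 18.8 and 23.2 CPM against 12.9, 9.63 and 12.2 CPM. Of 25 chaperones and importers, 17, 19 and 18 were 2-fold higher (medians 1.16, 1.53 and 1.54), among them Npm1 at 1444, 1362 and 1580 CPM in dividing cells and 648, 405 and 516 CPM in non-dividing cells. Set was at 581, 537 and 664 CPM against 267, 193 and 222 CPM. No gene of these 3 lists was 2-fold lower in dividing cells, where 19.5%, 20.6% and 21.8% of all tested genes were.

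For MI over Sham in non-dividing cells the medians of these lists were nearer 0 than that of the members. Here 10.6% of all tested genes were 2-fold lower. None of 10 variant genes, 1 of 26 processing genes and 1 of 25 chaperones was 2-fold lower, with medians of -0.46, -0.16 and -0.44 beside -0.94 for the members and -0.20 for all genes. For MI-E over MI the medians of the 3 lists were -0.06, 0.10 and 0.19 in dividing and 0.0088, 0.14 and 0.22 in non-dividing cells, beside 0.14 and 0.18 for all genes. In MI over Sham in non-dividing cells, of 45 S phase genes none was 2-fold lower (median -0.30), and of 51 G2 and M phase genes 2 were (median -0.06). Pclaf was at 652, 403 and 478 CPM in dividing and 25.2, 19.5 and 22.8 CPM in non-dividing cells, Dut at 502, 391 and 361 CPM against 68.3, 50.5 and 48.2 CPM, Hmgb2 at 4265, 3934 and 3980 CPM against 847, 1141 and 1146 CPM and Cks2 at 461, 390 and 347 CPM against 68.5, 59.7 and 54.3 CPM. Genes known to respond to handling of cells differed in the same comparisons: of 22, 9 were 2-fold lower and 1 higher in MI than in Sham in non-dividing cells (10.6% and 5.56% of all tested genes), and 11 and 1 in dividing cells (9.22% and 3.89%). Rbm3, a cold-inducible RNA-binding protein gene of that list, was at 609, 1469 and 1109 CPM in dividing and 388, 828 and 637 CPM in non-dividing cells. The part of handling in the histone values was not tested.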

How the data were processed

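Single cells of bone marrow were measured in 3 libraries, 1 each for Sham, MI and MI-E, with the 10x Genomics 3′ v3.1 chemistry. The values used are UMI counts per gene and barcode, whole numbers as the authors deposited them with no normalization. The counts were made by the authors with Cell Ranger 5.0.1 on mm10, per the submitters' processing notes. Which annotation release was used, and how reads matching several genes were treated, is not stated there or in the labels.

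A barcode entered when it had 300 or more genes and 500 or more UMIs, of which no more than 10% were mitochondrial. Likely doublets, scored in each library against simulated ones, were removed (13.2%, 11.4% and 11.0% of cells). This took 19.8%, 19.1% and 18.3% of dividing cells. The rest was clustered on 2000 variable genes without histone genes, Mki67 and Top2a (40 principal components, 20 neighbours, Leiden resolution 1) into 32 clusters. Marker lists named all but 1 of them, in 14 classes. UMIs were summed by library, class and division state and given as CPM. Classes needed 200 non-dividing or 50 dividing cells in each library. Levels have exact Poisson intervals, ratios exact conditional binomial intervals and shares exact Clopper-Pearson intervals. Ratios are called by size alone, past 2-fold.

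Members and lists were chosen with earlier results of these data known. The rule for names took members with at least 300 UMIs over the kept cells, H1f0, the 2 members with most UMIs of each family, the 5 genes most like H1f0, the 2 genes of each other list with the largest CPM in dividing cells, and Slbp, Npat, H2afz, H3f3b and H2afx. Stem-loops were searched in GENCODE M21 transcripts and promoters read from RefSeq (62 of 68 members matched by symbol or identifier). The ratio step was checked on simulated counts. In all, 18 alternatives were planned and 1, leaving out B lineage-like cells, was added after the data were seen. Python 3.11.15, numpy 2.4.6, pandas 2.3.3, scipy 1.17.1, scikit-learn 1.9.0, igraph 0.11.9, leidenalg 0.10.2 and matplotlib 3.10.9 were used. Values by cluster, by bins of the S share and by UMIs of Pclaf, Tyms and Rrm2 were chosen after values had been seen.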

Additional observations from a re-analysis of the deposited data

Results flagged for a closer look

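H1f0 in dividing cells differed in direction between classes in MI over Sham. In neutrophil-like cells it was at 12.8 CPM in Sham and 72.7 CPM in MI (48 and 856 UMIs), a log2 ratio of 2.50 and a ratio of 5.66 (4.23 to 7.74, counting error only). In stem and multipotent progenitor-like cells it was at 68.8 CPM in Sham and 33.1 CPM in MI (78 UMIs in each), a log2 ratio of -1.06. Erythroid-like (14.4 and 58.0 CPM), myeloid progenitor-like (21.1 and 45.5 CPM) and monocyte-like cells (73.5 and 112 CPM) were higher in MI. Plasmacytoid dendritic-like cells were at 56.9 and 51.9 CPM, a ratio of 0.913 (0.625 to 1.32). With 1 library a group the difference between classes was not tested.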

How the results depend on the processing

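No paired analysis was possible because each group has 1 library, and for the same reason no library could be left out. Counts of members past 2-fold are given as main count and alternative. No share of all genes was taken under the alternatives. Dividing over non-dividing: thinning cells to 1000 UMIs, which left 37 members tested, gave 36 in MI (60) and 35 in MI-E (57). S-leaning over G2M-leaning: Sham (3) gave 0 thinned, 6 with equal weight of cells, 18 at 1.5-fold and 23 with S shares of 0.4 to 0.6 left out. MI (1) gave 6 and 19 under the last 2. MI-E (1) gave 0 with dividing at 1 UMI, 3 with median-of-ratios scaling, 13 at 1.5-fold, 15 with the gap and 0 without B lineage-like cells. MI over Sham, all cells (5): 15 thinned, 3 with median-of-ratios scaling, 16 with equal weight, 2 as UMIs per cell, 30 at 1.5-fold and 2 without B lineage-like cells. Dividing cells (6): 3 with a looser cell filter, 16 thinned, 11 with equal weight, 2 per cell, 31 at 1.5-fold and 1 without B lineage-like cells. Non-dividing cells (30): 18 with dividing at 4 UMIs, 7 thinned, 16 with median-of-ratios scaling, 10 per cell, 52 at 1.5-fold and 19 without B lineage-like cells. MI-E over Sham, non-dividing (29): 17 thinned, 55 at 1.5-fold and 15 without B lineage-like cells. MI-E over MI, non-dividing (5): 3 with division called by Pclaf, Tyms and Rrm2 and 17 at 1.5-fold. The other 132 such counts stayed within 1.5 times. Single ratios under 2-fold in the main analysis were not checked for reversal. Of those at or past 2-fold 2 reversed, both of Hist1h2ap: from -1.44 to 0.0062 (MI over Sham, non-dividing neutrophil-like, thinned) and from 1.14 to -0.98 (MI-E over Sham, dividing monocyte-like, resolution 0.5). The cause was not tested. Median-of-ratios scaling adds to every log2 ratio 0.15, 0.07 and 0.11 in dividing over non-dividing cells of the 3 libraries and -0.07, -0.18 and -0.14 in S-leaning over G2M-leaning cells. Members under 10 expected UMIs could not be compared at this depth.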

Other observations

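A share of non-dividing cells held at least 1 histone UMI other than of H1f0. It was 75.0% of non-dividing cells in Sham (74.4 to 75.6), 54.9% in MI (54.1 to 55.7) and 57.5% in MI-E (56.8 to 58.3), by exact Clopper-Pearson intervals for counting error. In dividing cells it was 98.2%, 96.5% and 95.9%. At a common depth of 1000 UMIs a cell the expected shares were 54.5%, 31.1% and 36.0% in non-dividing cells, with 1649, 2341 and 2960 shallower cells left out, and 84.6%, 74.5% and 75.2% in dividing cells. Free RNA can enter these shares, and no class without histone RNA was at hand to set its level.

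The 1 cluster without a name was led by Prg2, an eosinophil granule gene, and held 51, 160 and 357 cells in the order Sham, MI, MI-E. It entered the sums over all cells and no class. In non-dividing cells of the Vpreb1-led B lineage-like cluster the members other than H1f0 summed to 1265, 828 and 985 CPM in Sham, MI and MI-E, in 495, 85 and 134 cells, and H1f0 was at 188, 91.3 and 318 CPM.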
